A study of Mus musculus with 20 samples.

Results

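The genes described here are the mRNAs of the hypoxia-inducible factors (HIFs) and of the enzymes and ubiquitin ligase subunit that control them. They were chosen by name: the alpha subunits Hif1a, Epas1 and Hif3a, the beta subunits Arnt and Arnt2, the prolyl hydroxylases Egln1, Egln2 and Egln3, the asparaginyl hydroxylase Hif1an and the ubiquitin ligase subunit Vhl. All 10 were found among the 14700 genes of the 4 tables, and 9 of them in the table that compares the genotypes under deprivation, where Hif3a was not among the genes tested. They were followed in mouse primary cortical neurons, isolated at embryonic day 15 and grown for 7 days, either wild type (WT) or knocked out (KO) for ciRS-7, a circular RNA listed as Cdr1as. The strain label of all 20 libraries, WT included, was C57BL/6N-Cdr1asem1Nikr. Normoxic cultures (N_WT and N_KO) received medium with glucose at 25 mM and sodium pyruvate at 0.2 mM, at 5% CO2. Cultures under oxygen and glucose deprivation (OGD_WT and OGD_KO), a culture model of ischemia, were kept for 12 h at 1% oxygen and 5% CO2 without either supplement. Each of the 4 groups had 5 libraries, which the series describes as biological replicates; whether the cultures came from separate litters, or how many embryos were pooled, is not given in the sources used here. The normoxic and OGD library of 1 replicate number and genotype share a batch label and are called a culture here. This pairing rests on the labels alone.

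HIFs are transcription factors built from an alpha and a beta subunit. When oxygen is present, the prolyl hydroxylases modify the alpha subunit, which Vhl then binds for degradation, and Hif1an modifies it in a way that blocks its coactivators. Both kinds of enzyme need oxygen and 2-oxoglutarate, so their activity falls in hypoxia, and Egln1 and Egln3 are themselves well known HIF target genes, which makes the system a feedback loop. This control acts on protein, so mRNA levels do not report HIF activity.

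The gene targeted by the knockout checked the genotype labels. Between 700 and 1365 reads of Cdr1as were recovered in a library of N_WT and between 5 and 16 in one of N_KO. Under OGD the ranges were 545 to 1912 in WT and 2 to 14 in KO. A gene count does not separate its circular from its linear transcripts. Reads per library ranged from 7071506 to 16658618. The mitochondrial ribosomal RNA mt-Rnr2 took between 10.1% and 16.4% of the reads of a normoxic library and between 13.8% and 32% under OGD. All 12 neuron markers looked up were measured, with a summed level between 5560 and 6940 CPM (reads scaled to the library's size) in N_WT and between 3700 and 6170 CPM in OGD_WT. The 10 measured astrocyte markers, of 12 looked up, summed to between 1540 and 2010 CPM in N_WT and between 2420 and 3130 CPM in OGD_WT. By the limma test given below, 6 of these 10 were higher and 1 lower under OGD in WT, beside 21.6% and 22.8% of all genes. In KO 4 were higher and 0 lower, beside 21% and 19.9%. Aldoc, 1 of the 10, is also counted below among the known HIF target genes. Of the 12 neuron markers, 0 were higher and 5 lower under OGD in WT, and 0 were higher and 7 lower in KO, beside the same shares of all genes. In KO cultures the neuron markers summed to between 5970 and 6570 CPM in normoxia and between 4060 and 4970 CPM under OGD, and the astrocyte markers to between 1520 and 2020 CPM and between 2130 and 2870 CPM. Of 12 endothelial markers, Kdr and Ocln were in the set of genes measured across all groups, and between 1 and 3 were tested in each comparison. The part of these shifts in cell type markers and mt-Rnr2 in the results that follow was not tested, and in bulk RNA fewer cells of a type and less RNA per cell cannot be told apart.

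HIFs bind the DNA core ACGTG or GCGTG. Promoters of the prolyl hydroxylases are shown first because these 3 genes, close relatives in function, moved differently under OGD. Each covers 250 bases before to 50 bases after the annotated start (RefSeq, build GRCm38.p6), written 5′ to 3′ along the gene, with every ACGTG or GCGTG core, on either strand, in capitals. The window of Egln3 is chr12:54203825-54204124, that of Egln1 is chr8:124949205-124949504 and that of the upstream start of Egln2 is chr7:27166753-27167052, all on the minus strand.
Egln3: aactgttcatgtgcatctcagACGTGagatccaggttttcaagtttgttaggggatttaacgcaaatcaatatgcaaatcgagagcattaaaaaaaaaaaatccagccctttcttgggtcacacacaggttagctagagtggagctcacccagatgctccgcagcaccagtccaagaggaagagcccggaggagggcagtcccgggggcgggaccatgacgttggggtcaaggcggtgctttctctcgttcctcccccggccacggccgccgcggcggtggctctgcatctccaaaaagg
Egln1: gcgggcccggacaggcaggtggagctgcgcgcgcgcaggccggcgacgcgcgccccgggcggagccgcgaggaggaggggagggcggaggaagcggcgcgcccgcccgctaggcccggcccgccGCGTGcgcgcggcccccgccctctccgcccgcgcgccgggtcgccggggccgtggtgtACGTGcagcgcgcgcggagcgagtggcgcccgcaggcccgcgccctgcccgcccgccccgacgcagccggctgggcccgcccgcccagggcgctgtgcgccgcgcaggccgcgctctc
Egln2: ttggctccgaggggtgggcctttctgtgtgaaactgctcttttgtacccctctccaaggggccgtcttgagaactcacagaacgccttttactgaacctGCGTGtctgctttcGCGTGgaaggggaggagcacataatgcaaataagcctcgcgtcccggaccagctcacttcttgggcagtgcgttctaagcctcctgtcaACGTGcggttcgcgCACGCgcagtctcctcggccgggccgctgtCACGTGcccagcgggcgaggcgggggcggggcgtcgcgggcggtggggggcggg
Egln3 had 1 core in its window, at position -229 from the start, and Egln1 had 2, at positions -126 and -68. Egln2, whose mRNA did not rise, had 6 at the start shown, of which 2 are the opposite strands of 1 palindrome, CACGTG, and 1 at another annotated start. Among all 32851 promoter windows of this length in the table, 43.8% held at least 1 core and 1.7% held at least 5. Of the other members matched to the table, Hif1a had 3 cores, Hif3a 2 and Arnt 1, and Arnt2, Hif1an and Vhl had 0. In Hif1a too, 2 of the cores are the opposite strands of 1 palindrome, CACGTG. A match is a description of letters, not a binding site.

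Across the members, OGD raised the mRNAs of the hydroxylases Egln3 and Egln1 most and raised Arnt by less. Vhl, Hif1an and Egln2 did not pass the threshold in the main fit of either genotype. Each comparison was tested with limma on log2 CPM over all genes, and a two-sided p under 0.05 after Benjamini-Hochberg adjustment counted as a call. In WT, 5 of the 10 members were called, Egln3, Egln1, Arnt and Hif1a higher and Hif3a lower. In KO, 3 were called, all higher: Egln3, Egln1 and Arnt. Much of the transcriptome moved as well, with 44.3% of all genes called in WT (21.6% higher and 22.8% lower) and 40.9% in KO (21% higher and 19.9% lower), so the count of members called is close to the background. With scaling by the library total the split of all genes was 11.4% higher and 40.4% lower in WT and 10.3% and 36.8% in KO. The median log2 fold change was 0.21 over the members and -0.028 over all genes in WT, and 0.15 and 0.003 in KO. What set the hydroxylases Egln3 and Egln1 apart from most genes was the size of the change: in WT 0.274% of all genes had a higher log2 fold change than Egln3 and 1.18% a higher one than Egln1. In KO these shares were 0.55% and 1.63%.

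**Figure D1:**
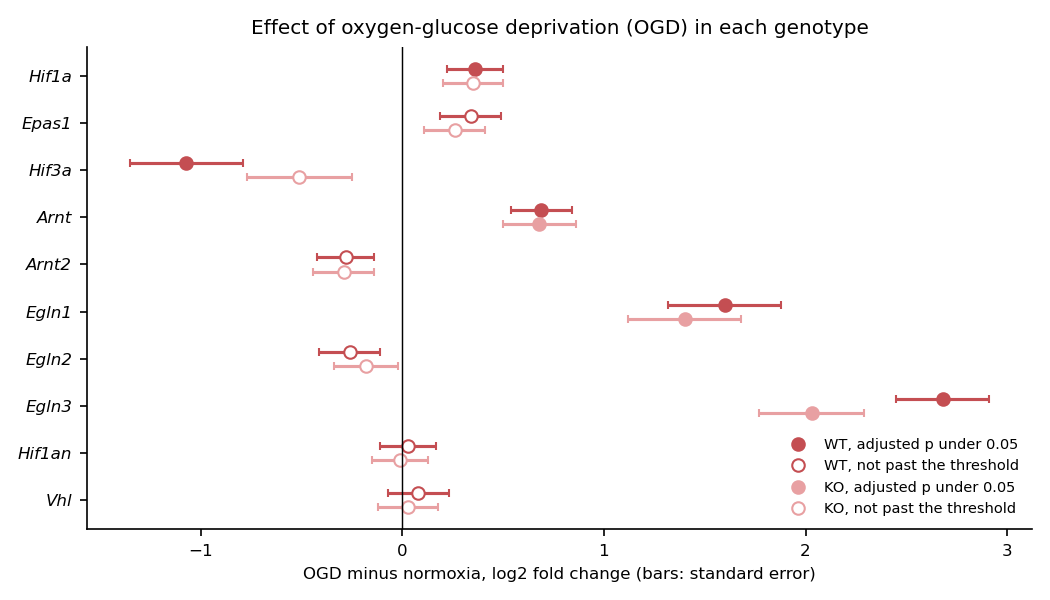
Log2 fold change of each member from normoxia to OGD (x axis) in WT and KO cultures, with bars of 1 standard error from the limma fit on 5 against 5 libraries and filled points where the adjusted p was under 0.05. Egln3 lies farthest to the right in both genotypes, at 2.68 in WT and 2.03 in KO, and Hif3a farthest to the left, at -1.07 and -0.51.

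Egln3 encodes the prolyl hydroxylase PHD3. In N_WT its level in replicates 1 to 5 was 2.94, 2.07, 2.64, 2.78 and 5.71 CPM, on a scale set across all 20 libraries. In OGD_WT the same cultures gave 26.2, 28.3, 25.4, 23.4 and 11.5 CPM. The groups did not overlap, and replicate 5 was the highest in normoxia and the lowest under OGD. In KO the levels were 4.01, 5.83, 3.39, 8.77 and 2.36 CPM in normoxia. Under OGD they were 18.6, 12.8, 23.1, 17.9 and 27.2 CPM, again without overlap. Egln3 rose 6.39-fold in WT (log2 fold change 2.68, SE 0.23, limma adjusted p 1.64e-08) and 4.08-fold in KO (log2 fold change 2.03, SE 0.26, limma adjusted p 7.56e-06), with a rise in all 5 cultures of each genotype. The exact permutation p was 0.00794 in both, the smallest that 5 against 5 libraries allow. Behind the normoxic levels stand only 27 to 85 reads per library.

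Egln1 encodes PHD2, regarded as the main HIF prolyl hydroxylase in normoxia. Its N_WT levels were 38.6, 25.5, 30.8, 20.4 and 62.1 CPM, and its OGD_WT levels 106, 171, 99.2, 127 and 47.2 CPM. The groups overlapped through replicate 5 alone, the culture with the highest normoxic and the lowest OGD level, where Egln1 was lower under OGD. In N_KO the levels were 35.7, 68.1, 34.0, 44.8 and 14.3 CPM, and in OGD_KO 82.9, 86.9, 108, 68.5 and 129 CPM. Each KO culture rose. The highest N_KO library lay just under the lowest OGD_KO library on this scale, and on the scale of their own table the groups overlapped. Egln1 rose 3.02-fold in WT (log2 fold change 1.60, SE 0.28, limma adjusted p 8.68e-05) and 2.64-fold in KO (1.40, SE 0.28, limma adjusted p 0.000697), with an exact permutation p of 0.0159 in each.

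Egln2 encodes PHD1, the remaining HIF prolyl hydroxylase. Its mean level was 31.8 ± 4.24 CPM (SD, n = 5) in N_WT and 26.8 ± 3.97 CPM (SD, n = 5) in OGD_WT. In KO it was 31.2 ± 1.42 CPM (SD, n = 5) and 27.8 ± 6.62 CPM (SD, n = 5). The log2 fold change was -0.26 (SE 0.15, limma adjusted p 0.168) in WT and -0.18 (SE 0.16, limma adjusted p 0.365) in KO. With scaling by the library total Egln2 was called lower in WT (-0.54, limma adjusted p 0.00773) and in KO (-0.48, limma adjusted p 0.0258). In WT it was also called lower without batch 3.1 (-0.42, limma adjusted p 0.0228) and with the deposited values (-0.29, limma adjusted p 0.0281). Hif1an, which encodes the asparaginyl hydroxylase FIH, had means between 35.8 and 37.6 CPM in the 4 groups and log2 fold changes of 0.03 and -0.01. Vhl, the substrate receptor of the ubiquitin ligase, had means between 29.5 and 32.1 CPM and log2 fold changes of 0.08 and 0.03. For both genes the standard errors were 0.14 or 0.15, and neither was past the threshold (limma adjusted p between 0.692 and 0.979).

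Because the relatives moved unequally, the makeup of the prolyl hydroxylase mRNAs shifted. Per kilobase of exon, Egln2 held 52.3% ± 13.2 (SD, n = 5) of the family in N_WT and 21.8% ± 10.7 (SD, n = 5) in OGD_WT. Egln1 went from 42.5% ± 12.1 to 60.6% ± 10, and Egln3 from 5.27% ± 1.44 to 17.6% ± 2.48 (SD, n = 5 each). The KO cultures gave 49.1% and 23.1% for Egln2, 43.5% and 59.8% for Egln1 and 7.4% and 17.1% for Egln3. The ranges of the Egln3 share did not overlap in WT, at 3.77% to 7.59% against 14.8% to 20.4%. In KO they did, at 5.26% to 12.3% against 11.3% to 20.4%. Among the beta subunits, Arnt took 15% ± 0.705 of the pair in N_WT and 25.8% ± 3.96 in OGD_WT (SD, n = 5 each), with Arnt2 as the rest. Among the alpha subunits Hif1a held between 91.0% and 92.1% on average in every group. These shares are a description and were not tested.

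**Figure D2:**
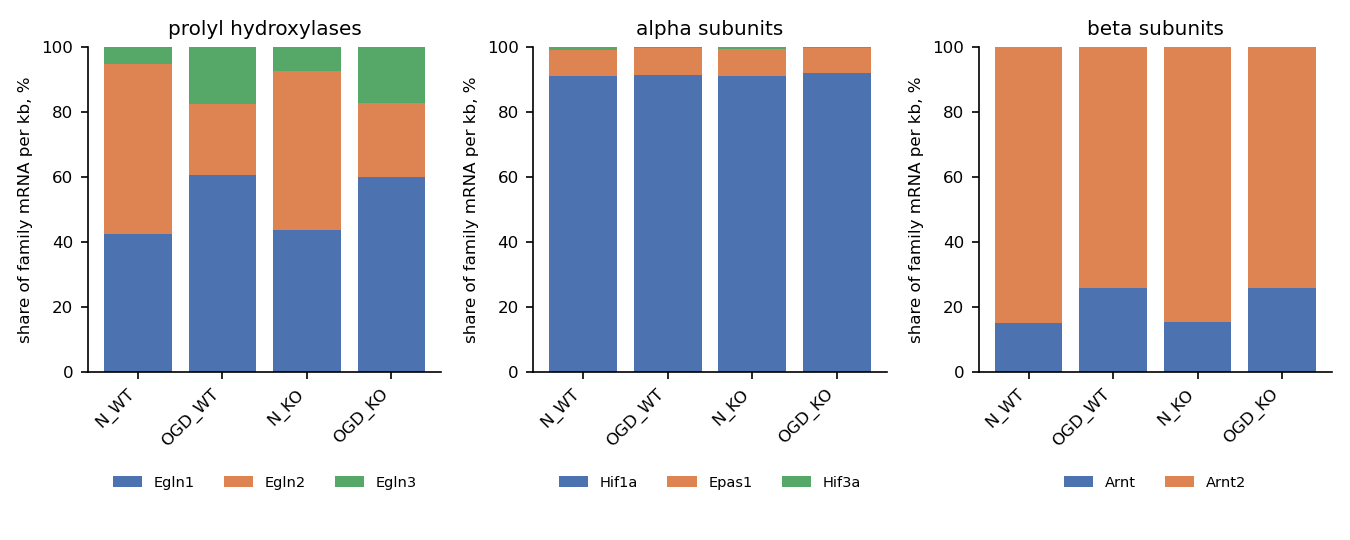
Mean share (y axis, percent) of each member in the summed CPM per kilobase of its family, in the 4 groups of 5 libraries each. By the mean, Egln2 is the largest part of the prolyl hydroxylases in normoxia and Egln1 under OGD, while Hif1a takes between 91.0% and 92.1% of the alpha subunits. Across normoxic libraries the shares of Egln2 and Egln1 overlapped, at 31.3% to 64.6% and 29.9% to 61.1% in N_WT. In N_KO they were 33.6% to 71.1% and 23.7% to 59.5%.

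Hif1a encodes the alpha subunit of HIF-1. It was the most abundant member per kilobase of exon, at 30.3 ± 0.708 CPM per kb in N_WT and 39.9 ± 7.53 CPM per kb in OGD_WT (SD, n = 5 each). Its levels in N_WT were 180, 178, 177, 185 and 174 CPM, and in OGD_WT 225, 311, 232, 211 and 197 CPM. Every OGD library lay above every normoxic library in WT, and the normoxic libraries lay close together. In N_KO the levels were 191, 167, 183, 224 and 153 CPM, and in OGD_KO 229, 197, 233, 287 and 219 CPM. The KO groups overlapped, yet Hif1a was higher under OGD in all 5 cultures of each genotype. The log2 fold change was 0.36 in WT (SE 0.14, limma adjusted p 0.0468) and 0.35 in KO (SE 0.15, limma adjusted p 0.0714). In KO Hif1a was called without batch 3.1 (0.38, limma adjusted p 0.0403) and without OGD_KO replicate 2 (0.41, limma adjusted p 0.0416). It was also called there with the deposited values (0.35, limma adjusted p 0.0115). The WT call was marginal: in 8 of the 10 fits that leave out 1 library it was lost, with limma adjusted p-values up to 0.102, and with scaling by the library total the log2 fold change was 0.08 (limma adjusted p 0.674). That scaling moved the median of all genes to -0.302 in WT and -0.282 in KO, so a value under it is to be read against those medians. Of the exons of Hif1a, 5.6% are overlapped by the antisense gene Gm15283, and 5.74% of its 50-base words occur in another gene; whether counting used strand is not given in the sources used here.

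Epas1 encodes HIF-2alpha. Its mean was 15.1 ± 1.90 CPM in N_WT and 19.4 ± 2.39 CPM in OGD_WT, and 15.1 ± 2.50 and 18 ± 2.84 CPM in KO (SD, n = 5 each). It was higher under OGD in all 10 cultures, with log2 fold changes of 0.34 (SE 0.15, limma adjusted p 0.0675) in WT and 0.26 (SE 0.15, limma adjusted p 0.187) in KO, neither past the threshold. In WT it was called without OGD_WT replicate 2 (0.40, limma adjusted p 0.0306) and with the deposited values (0.32, limma adjusted p 0.0156).

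Hif3a encodes an alpha subunit known for isoforms that restrain HIF activity, and it was the least abundant member, with at most 45 reads in any library. In N_WT its levels were 2.12, 1.07, 1.57, 1.48 and 3.25 CPM, and in OGD_WT 0.715, 0.0941, 0.797, 0.763 and 1.20 CPM. OGD_WT replicate 2 rested on 1 read. The groups overlapped slightly, and Hif3a was lower under OGD in all 5 WT cultures. In N_KO the levels were 1.74, 1.17, 1.33, 1.90 and 2.79 CPM, and in OGD_KO 0.817, 0.956, 1.39, 0.478 and 2.21 CPM, lower in 4 of 5 cultures. Hif3a fell in WT (log2 fold change -1.07, SE 0.28, limma adjusted p 0.00347), and in KO it was at -0.51 (SE 0.26, limma adjusted p 0.119). In KO Hif3a was called lower without OGD_KO replicate 5 (-0.71, limma adjusted p 0.0166). It was also called lower there with scaling by the library total (-0.87, limma adjusted p 0.0208) and with the deposited values (-0.49, limma adjusted p 0.0456). The size of the change depends on the prior count at such low levels, and with a prior count of 0.5 it was -1.57 in WT. The genotypes were not shown to differ in the effect of OGD on Hif3a. The per-culture changes averaged -1.31 in WT and -0.62 in KO, with an exact permutation p of 0.111 for the difference. In the joint fit that holds Hif3a the difference was 0.69 (SE 0.51, limma unadjusted p 0.193).

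Arnt encodes HIF-1beta, the common partner of the alpha subunits. Its levels in N_WT were 32.0, 33.5, 29.6, 28.7 and 29.0 CPM, and in OGD_WT 51.4, 52.0, 52.0, 35.8 and 61.8 CPM, without overlap. In N_KO they were 31.1, 32.3, 31.7, 18.6 and 44.7 CPM, and in OGD_KO 47.3, 54.6, 48.7, 52.5 and 41.9 CPM. The KO groups overlapped because N_KO replicate 5 was higher than OGD_KO replicate 5. Arnt rose 1.61-fold in WT (log2 fold change 0.69, SE 0.15, limma adjusted p 0.000942) and 1.60-fold in KO (0.68, SE 0.18, limma adjusted p 0.00635). The KO call was lost with scaling by the library total (0.39, limma adjusted p 0.118) and without batch 3.1 (0.38, limma adjusted p 0.0923). It was also lost with batches 3.1, 3.2 and 3.3 only (0.72, limma adjusted p 0.0924), a fit that in KO holds replicates 2, 4 and 5 alone. That smaller fit called 16.3% of all genes in KO, against 40.9% in the main fit. Arnt2, the beta subunit of neurons, was the more abundant of the pair, with a mean of 167 ± 12.4 CPM in N_WT and 139 ± 13.0 CPM in OGD_WT (SD, n = 5 each). Its log2 fold change was -0.28 (SE 0.14, limma adjusted p 0.0977) in WT, where it was lower in 5 of 5 cultures, and -0.29 (SE 0.15, limma adjusted p 0.145) in KO, lower in 4 of 5. Arnt2 was called lower with scaling by the library total in WT (-0.56, limma adjusted p 0.00277) and in KO (-0.58, limma adjusted p 0.012). So it was with the deposited values (limma adjusted p 0.013 and 0.0245). The call was also gained in WT without OGD_WT replicate 2 (-0.33, limma adjusted p 0.0384) and in KO without batch 3.1 (-0.43, limma adjusted p 0.0273).

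In WT the groups did not overlap for 3 of the 10 members (Hif1a, Arnt and Egln3), against 26.9% of all genes, and in KO for 1 (Egln3), against 25.8%. Without N_KO replicate 4, which had the lowest Arnt and Arnt2 of its group, 5 members were called in KO, beside 39.6% of all genes. Hif1a (0.43, limma adjusted p 0.0291) and Arnt2 (-0.39, limma adjusted p 0.0312) were added. The other KO fits that leave out 1 library called 3 or 4 members.

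**Figure D3:**
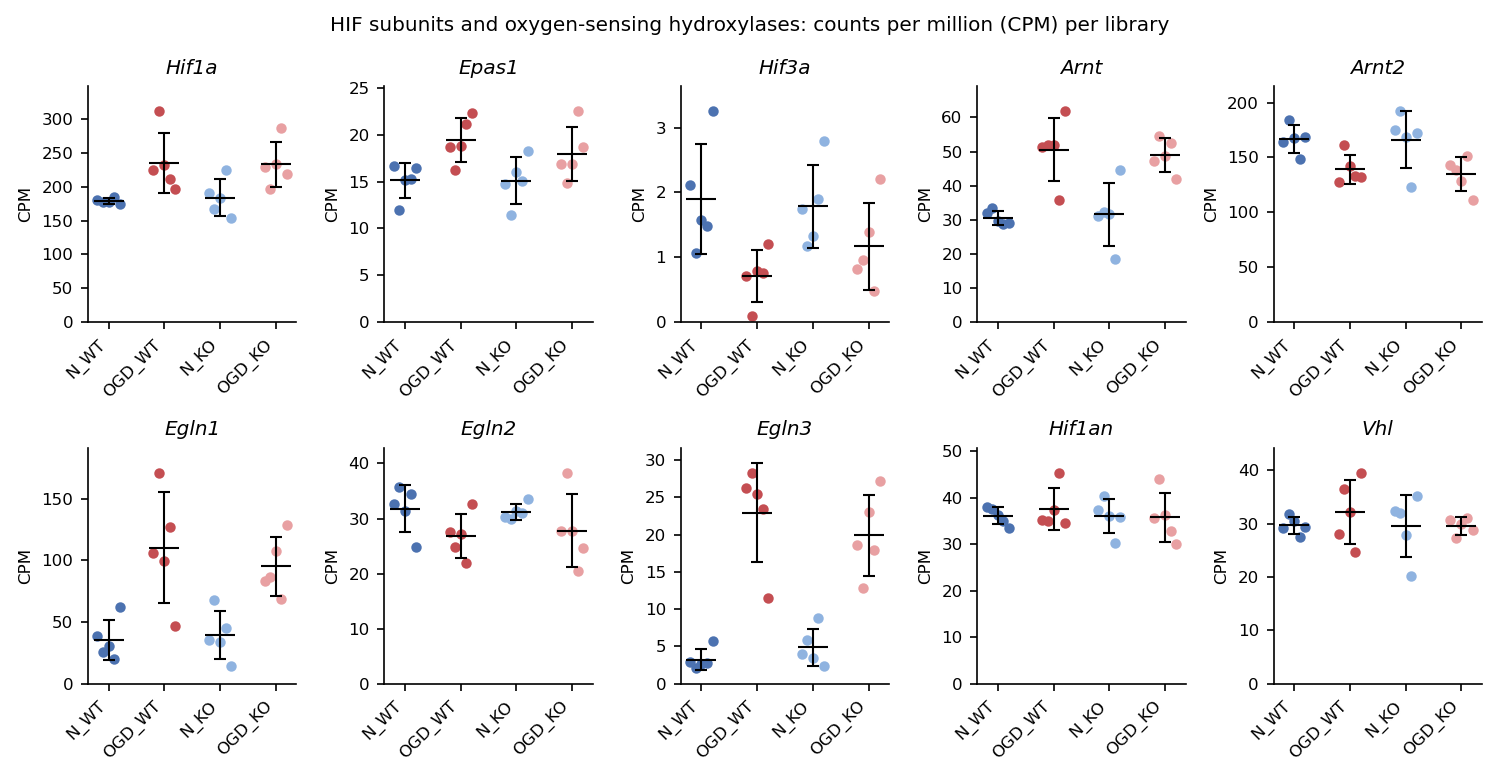
Level of each member (y axis, CPM from 0 on a scale set across all libraries) in every library of N_WT, OGD_WT, N_KO and OGD_KO, with a bar at the mean and whiskers of 1 SD over 5 libraries. Egln3 lies at 8.77 CPM or lower in every normoxic library and at 11.5 CPM or higher in every OGD library, while Hif1an and Vhl stay near 30 to 40 CPM in most.

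The order of the levels per kilobase of exon in N_WT ran from Hif1a (30.3 CPM per kb) and Arnt2 (21.7) through Egln2 (11.4), Vhl (9.89), Egln1 (9.87), Hif1an (5.48), Arnt (3.81), Epas1 (2.71) and Egln3 (1.21) to Hif3a (0.283). Neighbours whose libraries overlapped were Egln2 and Vhl, Vhl and Egln1, Egln1 and Hif1an, and Epas1 and Egln3. Under OGD in WT, Egln1 (30.6) stood second and Egln3 (8.62) sixth, each overlapping both neighbours in the order. Epas1 and Hif3a were last in OGD_WT and OGD_KO.

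Cultures differed in the hydroxylases along the batch label. The 3 cultures of batch 3.1 (WT replicate 5 and KO replicates 2 and 4) had between 44.8 and 68.1 CPM of Egln1 in normoxia, against 14.3 to 38.6 CPM in the other 7 cultures. For Egln3 the values were 5.71 to 8.77 CPM against 2.07 to 4.01 CPM. Under OGD the same cultures had the lowest Egln3, at 11.5 to 17.9 CPM against 18.6 to 28.3 CPM, and their Egln1, at 47.2 to 86.9 CPM, overlapped the others at 82.9 to 171 CPM. Their OGD level of Arnt, at 52.5 to 61.8 CPM, lay above that of the other 7, at 35.8 to 52.0 CPM. The change of Egln3 per culture was 0.98, 1.11 and 1.02 on the log2 scale in batch 3.1 and between 2.17 and 3.66 elsewhere. For Egln1 it was -0.39, 0.35 and 0.61 against 1.21 to 3.15. Over 41 known HIF target genes the mean level moved in the same way, from between 4.94 and 5.05 in normoxia to between 5.28 and 6.06 under OGD in batch 3.1, on the log2 CPM scale. In the other cultures it went from between 4.16 and 4.58 to between 6.10 and 6.70. What batch 3.1 denotes is not given in the sources used here, and the part of any handling difference was not tested. Without batch 3.1, Egln3 rose by 3.10 in WT and 2.68 in KO and Egln1 by 2.09 and 2.00 on the log2 scale, and 6 members were called in WT and 4 in KO, where 49.1% and 40.7% of all genes were called.

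**Figure D4:**
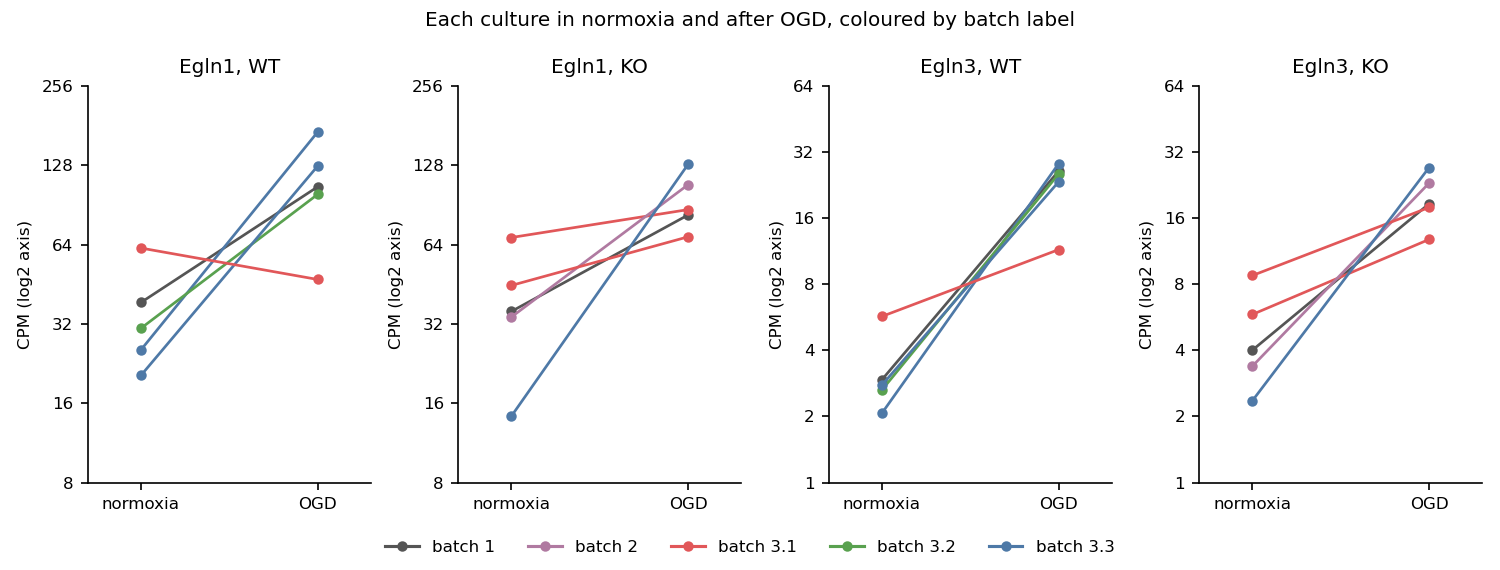
Level of Egln1 and Egln3 (y axis, CPM on a log2 axis) in each culture in normoxia and under OGD, joined by a line coloured by the batch label, for WT and KO. The 3 lines of batch 3.1 start highest and are the flattest, from -0.39 to 0.61 for Egln1 and from 0.98 to 1.11 for Egln3.

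The knockout was compared with WT in each condition, to ask whether loss of ciRS-7 alters the oxygen-sensing genes. No member was called in normoxia (0 of 10, limma, with 0 at an unadjusted p under 0.05) or under OGD (0 of 9, also with 0 at an unadjusted p under 0.05). Over all genes 0.0353% were called in normoxia and 0.0282% under OGD, with Cdr1as among them (-6.32 and -6.26 on the log2 scale). In normoxia the members' log2 fold changes ranged from -0.05 (Hif3a) to 0.49 (Egln3), and under OGD from -0.18 (Egln3) to 0.03. Egln3 had 3.23 ± 1.43 CPM in N_WT and 4.87 ± 2.52 CPM in N_KO (SD, n = 5 each), a difference within the spread between libraries (SE 0.28, limma unadjusted p 0.0986, exact permutation p 0.23). Batch 3.1 holds 1 of the 5 WT cultures and 2 of the 5 KO cultures. Within batch 3.1 the ratio of KO to WT for Egln3 in normoxia was 1.28 (2 cultures against 1), within batch 3.3 it was 0.973 (1 against 2) and within batch 1 it was 1.36 (1 against 1). For Egln1 the log2 fold change in normoxia was 0.09 (SE 0.32), and with the batch label as a covariate it was -0.34. Hif3a under OGD was compared on the joint scale and differed by 0.64 between genotypes, with an exact permutation p of 0.27.

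The difference between the genotypes in the effect of OGD was tested as an interaction over 13688 genes. It was called for 0.0% of genes (limma, with 158 at an unadjusted p under 0.05) and for 0 of 9 members, with 0 at an unadjusted p under 0.05. The 158 genes are a smaller share than the 0.05 that no difference would give, so this test too was conservative. Without batch 3.1 the number was 555. Among these 9 members Egln3 had the largest difference, -0.68 (SE 0.39, limma unadjusted p 0.0877), and Egln1 had -0.21 (SE 0.44, limma unadjusted p 0.64). The Egln3 rise averaged 2.78 ± 1.04 over the WT cultures and 2.09 ± 1.04 over the KO cultures (SD, n = 5 each, log2 scale), with an exact permutation p of 0.302. Without batch 3.1 the Egln3 interaction was -0.46.

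ciRS-7 is known for binding the microRNA miR-7, so the members were searched for its sites. The mature sequences (RefSeq, build GRCm38.p6) are shown with the seed, bases 2 to 8, in capitals.
mmu-miR-7a-5p: uGGAAGACuagugauuuuguugu
mmu-miR-7b-5p: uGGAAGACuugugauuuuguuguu
Of the 10 members, Hif3a alone held a match to the seed in its 3′ UTR, 2 in all, at UTR positions 522 and 4097. Each is shown with flanking bases and with the match in capitals, of 7 bases in the first and 8 in the second.
Hif3a, position 522: gtgagactctgGTCTTCCccctcttccgtg
Hif3a, position 4097: tgctactctggGTCTTCCAcaggagaagac
Over 21173 mouse genes with a 3′ UTR, 12.8% held a match of 7 bases and 3.8% a match of 8. Between the genotypes Hif3a differed by -0.05 in normoxia (SE 0.25, limma unadjusted p 0.838), a difference within the spread between libraries. MicroRNA levels were not analysed here.

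Other genes of the pathway were taken from lists by function. Of 28 measured partners of HIF stability and transcription, 8 rose and 4 fell in WT and 5 rose and 2 fell in KO, with medians of 0.12 and 0.16 beside -0.028 and 0.003 over all genes. The share called is near the 44.3% of all genes in WT and below the 40.9% in KO. Without N_WT replicate 3 the WT count was 7, where 36.9% of all genes were called. Without batch 3.1 the KO count was 11, where 40.7% of all genes were called. The largest rises in WT were those of Pkm, a glycolytic enzyme whose product also serves as a HIF coactivator (log2 fold change 1.03, SE 0.19, limma adjusted p 0.00014), Rack1, a scaffold that promotes HIF-1alpha degradation (0.83, SE 0.15, limma adjusted p 0.00016), and Cited2, a competitor for the coactivator p300 (0.70, SE 0.16, limma adjusted p 0.0015). In KO these genes also rose, by 0.79, 0.87 and 0.89, and the Pkm call in KO was lost with batches 3.1, 3.2 and 3.3 only (limma adjusted p 0.177). The largest falls in WT were those of Rwdd3 (-0.66), Rbx1 (-0.54), a ring subunit of the Vhl ligase, and Usp20 (-0.47), a deubiquitinase. In KO Usp20 fell by 0.56, and Rwdd3 (-0.42) and Rbx1 (-0.38) did not pass the threshold. The Usp20 calls were lost with batches 3.1, 3.2 and 3.3 only (limma adjusted p 0.0581 in WT and 0.205 in KO).

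Of 10 other enzymes that use 2-oxoglutarate or oxygen, 3 rose and 1 fell in WT and 3 rose in KO, with medians of 0.14 and 0.10. These counts are not above the background of 44.3% and 40.9% of all genes called. Jmjd6 rose by 1.58 in WT and 1.40 in KO, and Alkbh5, an RNA demethylase, by 1.49 and 1.33. Kdm5a, a histone demethylase, rose by 0.66 and 0.56, and Riox2 fell in WT (-0.53, limma adjusted p 0.00891). The Kdm5a call in KO was lost with scaling by the library total (0.27, limma adjusted p 0.175) and with batches 3.1, 3.2 and 3.3 only (limma adjusted p 0.241), as was the Riox2 call in WT with those batches (limma adjusted p 0.0587). Of 10 measured relatives of the HIF subunits in the bHLH-PAS family, 3 rose and 3 fell in WT and 2 rose and 3 fell in KO, with medians of 0.14 and 0.17. With 10 genes these counts are close to the background of 44.3% and 40.9% of all genes called. Npas4, a gene induced by neuronal activity, rose by 1.72 in WT and 1.28 in KO, and Npas3 by 0.78 and 0.77. Clock, a circadian factor, rose by 0.67 in WT and was at 0.50 in KO (limma adjusted p 0.12), where without batch 3.1 it was at -0.02. With scaling by the library total Clock in WT was at 0.39 (limma adjusted p 0.0509). The Npas3 call in KO was lost without batch 3.1 (0.32, limma adjusted p 0.417), with library total scaling (0.48, limma adjusted p 0.162) and with batches 3.1, 3.2 and 3.3 only (limma adjusted p 0.0552). It was also lost without OGD_KO replicate 2 (limma adjusted p 0.0541) and without OGD_KO replicate 4 (limma adjusted p 0.0625). Npas2 fell by 1.47 and 1.28, and Ahr, the aryl hydrocarbon receptor, by 0.59 and 0.73. With the replicate number as a block the Ahr call in WT was lost (limma adjusted p 0.0516), as it was without N_WT replicate 2 (-0.47). Ahrr, the repressor of that receptor, fell from 1.47 ± 0.349 to 0.577 ± 0.167 CPM in WT and from 1.70 ± 0.301 to 0.408 ± 0.379 CPM in KO (SD, n = 5 each). Its log2 fold change, -0.94 in WT and -1.44 in KO, depends on the prior count at such low levels, and with a prior count of 0.5 it was -1.32 and -2.55.

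Of 41 known HIF target genes matched by symbol in WT, 31 rose and 1 fell, and of 42 matched in KO, 31 rose and 1 fell. Of all genes 21.6% and 21% were called higher. Aldoa, also on the list, was measured under a gene identifier in place of its symbol and is not counted here. The median log2 fold change of the matched targets was 1.59 in WT and 1.31 in KO, beside -0.028 and 0.003 over all genes. Slc2a1, which encodes a glucose transporter, rose by 3.95 in WT and 3.50 in KO, and the hexokinase gene Hk2 by 3.72 and 3.34. The vasodilator peptide gene Adm, with 0 reads in some normoxic libraries, rose from 0.111 ± 0.162 to 5.11 ± 0.663 CPM in WT and from 0.0473 ± 0.0462 to 4.71 ± 1.19 CPM in KO (SD, n = 5 each), and its fold is not given because it depends on the prior count. Ndrg1 went the other way, at -0.49 and -0.65. Its WT call was lost without OGD_WT replicate 1 (limma adjusted p 0.088), without N_WT replicate 1 (limma adjusted p 0.0563) and without N_WT replicate 4 (limma adjusted p 0.0655). With batches 3.1, 3.2 and 3.3 only it was lost in WT (limma adjusted p 0.185) and in KO (limma adjusted p 0.14).

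Over the 20 libraries the genes whose log2 CPM was most like that of Egln3 were Aldoa (Pearson r 0.98), Pgk1 (0.977) and P4ha1 (0.976), out of 12687 other genes (12688 for Hif3a) whose log2 CPM averaged 1 or more. For Egln1 they were Tbl2 (0.968), Ccdc59 (0.964) and Bnip3 (0.963), and for Hif1a Csnk1a1 (0.964), Ctdsp2 (0.945) and Tcea1 (0.933). Epas1 was most like Cacnb2 (0.894), Cpsf4 (0.88) and Klhl13 (0.88), and Hif3a most like Dusp15 (0.902), E230020A03Rik (0.90) and Dnajb5 (0.888). Among the members the highest correlation was that of Egln1 with Egln3 (0.921) and the lowest that of Hif1a with Hif3a (-0.766). These values describe libraries that share the OGD contrast, the batch label and the scaling, and carry no test.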

How the data were processed

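RNA was measured in 20 libraries of mouse cortical neurons in 4 groups of 5. The authors deposited log2 CPM values in 4 tables, 1 per pair of groups. The genome build was mm10, per the submitters' processing notes. The aligner, counting, filter and scaling are not given in the sources used here.

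In the deposited log2 CPM the extreme libraries at both ends of every group lay, gene by gene, at the 10th and 90th percentile of their 5 values (0.6 of the extreme and 0.4 of its neighbour). This was inferred from the values and inverted, since narrowed extremes make p-values too small. At least 99.91% of values up to 500 reads then corresponded to whole reads, within 0.05 reads, against 45.5% to 92.8% as deposited. The reads recovered ranged from 7071506 to 16658618 per library.

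Tables were fitted separately with limma 3.58.1 in R 4.3.3 (lmFit, eBayes with intensity trend, no block), with Benjamini-Hochberg adjustment over all genes of a table and a threshold of 0.05. The interaction used the recovered reads of 13688 genes on log2 CPM of library totals with a prior count of 2. Levels in CPM were scaled over the 20 libraries by the median of ratios, and per kilobase by exon union (GENCODE release, mm10). Single genes were tested by exact two-sided permutation with scipy 1.17.1. Code was tested on simulated data.

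Same-numbered N and OGD libraries share the genotype and batch label. They were paired by the replicate number, since some replicates of a genotype carry the same batch label. The deviations of same-numbered libraries from their group means had correlations between -0.791 and 0.034. In every case the highest correlation with a library of another number was larger, between 0.07 and 0.22. The values therefore do not bear out the pairing, and changes and counts per culture rest on the labels. Alternatives were the deposited values, other scalings, prior counts, filters and tests, batches, the replicate block and leaving out each library. Leaving out batch 3.1 and the joint fit that holds Hif3a were chosen after seeing the data. The 10 members and the gene lists were chosen with earlier results of these data known. The genes named are the members, the 3 with the largest called change in each direction per pathway list in WT, and the 3 most like each of Hif1a, Epas1, Hif3a, Egln1 and Egln3.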

Additional observations from a re-analysis of the deposited data

Results flagged for a closer look

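In 40 sets of 5 libraries (10 members in 4 groups), 5 held a library far from the other 4 by Dixon's criterion, and chance gives about 1 in 20. Egln3 in OGD_WT replicate 5, a culture of batch 3.1, was at 3.54 log2 CPM (115 reads) against 4.56 to 4.83 in the others. Hif3a in OGD_WT replicate 2 was at -1.89 log2 CPM, from 1 read, against -0.17 to 0.46. Epas1 in N_WT replicate 2 was at 3.6 against 3.94 to 4.08, Arnt2 in N_KO replicate 4 at 6.94 against 7.40 to 7.58, and Hif1an in OGD_WT replicate 4 at 5.51 against 5.13 to 5.23.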

How the results depend on the processing

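With the deposited values, 8 members were called in WT and 6 in KO under OGD, 16 HIF partners and 5 other oxygen-using enzymes in KO, and of all genes 58.2% were called in WT and 55.8% in KO. With scaling by the library total 6 members were called in WT, 3 higher and 3 lower, where 11.4% and 40.4% of all genes were called higher and lower. In KO it called 5, 2 higher and 3 lower, where the shares were 10.3% and 36.8%. Leaving out each library gave 4 to 6 members in WT and 3 to 5 in KO, and 7 to 12 and 5 to 9 HIF partners. In these refits between 36.9% and 46.6% of all genes were called in WT and between 34.1% and 41.3% in KO. With batches 3.1, 3.2 and 3.3 only, 4 members and 6 HIF partners were called in WT, and 2 members and 3 HIF partners in KO. With those batches 34.5% of all genes were called in WT and 16.3% in KO, where replicates 2, 4 and 5 alone remain. Without batch 3.1, 11 HIF partners were called in KO, where 40.7% of all genes were called. No alternative called a member between genotypes or in the interaction. In the fit with the replicate block 5 members were called in WT, 3 in KO and 0 elsewhere, and the block ended no call of a member. Of all genes that fit called 39.9% in WT and 33.6% in KO.

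Egln1, Egln3 and Hif3a in WT, Arnt in WT and Egln1 and Egln3 in KO kept their direction and call under OGD in every alternative run that tested them; Hif3a was not tested under the filter on low levels. Changes of sign were found only in values that were not called, and the cause was not tested. With scaling by the library total, Hif1an was at -0.25 and Vhl at -0.20 in WT, and Epas1 at -0.03 and Vhl at -0.26 in KO. With batches 3.1, 3.2 and 3.3 only, Hif1an was at 0.01 in KO and Hif3a at 0.10 by knockout in normoxia, where limma voom gave Hif3a 0.00. Without batch 3.1, Vhl was at -0.01 in WT and -0.08 in KO, Clock at -0.02 in KO, and by knockout in normoxia Hif3a at 0.25 and Egln1 at -0.12. With the batch label as a covariate, Egln1 was at -0.34 by knockout in normoxia and 0.09 under OGD, and Egln3 at 0.04 under OGD. Leaving out each library gave Hif1an -0.04 to 0.05 and Vhl 0.00 to 0.17 in WT, Hif1an -0.09 to 0.05 and Vhl -0.10 to 0.10 in KO, Hif3a -0.21 to 0.14 and Egln1 -0.15 to 0.41 by knockout in normoxia, Egln1 -0.40 to 0.05 under OGD and -0.69 to 0.06 in the interaction. The other 7 members changed sign in 29 of 140 refits in normoxia, 12 of 140 under OGD and 15 of 112 in the interaction, and passed the threshold in 0. Precision is limited for Hif3a and normoxic Egln3, with 1 to 45 and 27 to 85 reads per library.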
